A study of Homo sapiens with 6 samples.

Results

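The genes described here are 10 small GTPases: the RGK genes RRAD, GEM, REM1 and REM2, the Rnd genes RND1 and RND3, the genes RHOB and RHOU, and the Ras-like genes RASD1 and DIRAS3. They were found by matching Ensembl gene IDs to symbols in the GENCODE 44 annotation of GRCh38, and 9 of the 10 were measured among the 35840 genes of the table, while REM1 was not analysed here. The set was chosen with the measured difference between metformin and control libraries already known, so that difference is given for its members as a description, with no test of it. The data came from Huh-7, an established human hepatocellular carcinoma cell line. The metformin libraries (replicates 1 to 3) were from cells kept for 48 h in 20 mM metformin, and the control libraries (replicates 4 to 6) were from cells kept for 48 h at 0 mM. Per the study's methods the cells of both groups were starved beforehand. The dose is that of the methods on RNA extraction and library construction, and another concentration is given elsewhere in the study. Metformin is an antidiabetic biguanide known to inhibit complex I of the mitochondrial respiratory chain. A cultured tumor line holds no other cell types of the liver, which limits it as a model of that organ.

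Small GTPases are switches that bind GTP in the active state and GDP in the resting state. Exchange factors load them with GTP, GTPase-activating proteins return them to GDP, and most carry a lipid at the C-terminus that holds them on membranes. RGK proteins depart from this plan, since they lack that lipid signal and are best known for binding the β subunits of voltage-gated calcium channels and reducing calcium current in muscle, nerve and endocrine cells. Rnd proteins stay bound to GTP and oppose the signal of RhoA to the actin cytoskeleton, so their activity depends largely on how much of them a cell makes. Several of these genes are known as genes of rapid induction: GEM by mitogens, RHOB by growth factors and DNA damage, and RASD1 by glucocorticoid.

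Expression was measured in FPKM, a fragment count scaled to the exon length of the gene and to the fragments of the library, as deposited by the authors. Library totals rebuilt from the FPKM steps were 17241997 to 18464783 fragments in metformin libraries and 17192221 to 17835152 in control libraries. Metformin replicate 3 stood farthest from the rest of its group: the chi-square per degree of freedom of its fragments was 9.18 and 13.1 against the other metformin libraries, which differed from each other by 5.19. Control pairs gave 4.37 to 7.51, and pairs across the groups gave 140 to 156. It is not known if libraries of a group came from separate cultures, so a p-value here measures the spread between these libraries, which may be technical. All 10 hepatocyte and hepatoma markers, albumin among them, were at or above 1 FPKM in every library, with a summed level of 1715 to 1850 FPKM in metformin libraries against 3064 to 3110 in control libraries. Among them APOA2 went the other way, at 389 to 445 FPKM in metformin libraries and 267 to 297 FPKM in control libraries, and SERPINA1 overlapped between the groups. Of 4 leukocyte markers CD68 was at 0 in all libraries, PTPRC reached at most 0.0411 FPKM, and CD14, which hepatocytes also make, was at 5.79 to 10.1 FPKM in metformin libraries and 22.5 to 34.6 FPKM in control libraries. Of 3 endothelial markers the summed level reached at most 0.490 FPKM. Of 4 fibroblast markers ACTA2 reached at most 0.0586 FPKM, COL1A1 was at 0.730 to 0.872 FPKM in metformin libraries and 1.79 to 2.03 FPKM in control libraries, PDGFRB overlapped between the groups at 0.648 to 1.41 FPKM with metformin and 0.652 to 0.844 FPKM in control, and LUM was at 34.0 to 45.9 FPKM in metformin libraries and 99.0 to 111 FPKM in control libraries. The part of these marker differences in the GTPase levels was not tested.

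After metformin, 3 of the GTPase genes stood far above the control level: RRAD by 38.6-fold, GEM by 9.15-fold and RND1 by 5.17-fold in mean FPKM. RASD1 was 2.06-fold and RHOU 1.33-fold above control, and in these 5 genes every metformin library exceeded every control library. RND3 and RHOB had FPKM values that overlapped between the groups. REM2 and DIRAS3 were close to the limit of what these libraries can measure. A gene entered the test across all genes when its mean reached 1 FPKM in at least 1 of the groups, which 7 of the 9 measured members reached, RRAD only through the metformin group. With limma and Benjamini-Hochberg adjustment over the 13094 genes tested, 5 of these 7 passed an adjusted p of 0.05 as higher, against a background of 28.9% of all genes, and RND3 and RHOB did not pass. The background of genes that passed as lower was 44.1%. Groups without overlap, with metformin above control, were found in 5 of the 7 and in 30.7% of all genes. The members were selected on this same contrast, so nothing is read from these counts. The RNA was from whole cultures, in which fewer cells of a type and less RNA per cell cannot be told apart.

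**Figure D1:**
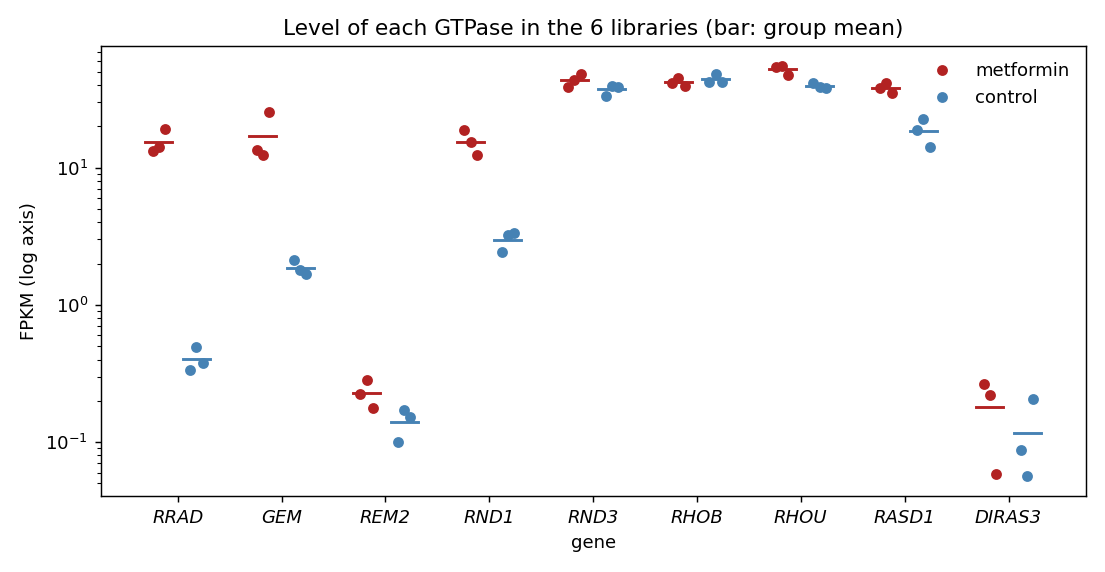
FPKM of the 9 measured GTPases (x axis) in each library on a log axis (y axis), with metformin in red on the left and control in blue on the right of each gene. Points are libraries and bars are group means of 3. RRAD, GEM and RND1 sat at means of 15.5 to 17.1 FPKM in metformin libraries, against 0.401 to 3.0 FPKM in control libraries, whereas the points of RHOB and RND3 overlapped near 40 FPKM.

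RRAD, named Ras-related associated with diabetes because it was found by its high level in muscle of people with type 2 diabetes, had the largest fold among the members. Its gene (ENSG00000166592) lies on the minus strand at chr16:66921685-66925535 and has 5 exons. RRAD was at 13.3, 14.1 and 19.1 FPKM in metformin libraries, against 0.336, 0.492 and 0.374 FPKM in control libraries. Metformin replicate 3 was the highest, and the lowest metformin library was 26.9 times the highest control library. These levels rested on 392, 444 and 562 fragments in metformin libraries and on 10, 15 and 11 in control libraries, so that the control level is the less certain of the pair. The group means were 15.5 ± 3.15 FPKM with metformin and 0.401 ± 0.0815 FPKM in control (SD, n = 3 each). On the scale of log2(FPKM + 1) the difference was 3.54, while the log2 ratio of the means was 5.27, because adding 1 FPKM compresses a gene that is below 1 FPKM in control.

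GEM, first described as a gene induced by mitogens in T cells, encodes, like RRAD, a protein that binds the calcium channel β subunits. The gene (ENSG00000164949) lies on the minus strand at chr8:94249253-94262350 and has 5 exons. GEM was at 13.4, 12.4 and 25.3 FPKM in metformin libraries, against 2.12, 1.80 and 1.67 FPKM in control libraries. The groups did not overlap, but metformin replicate 3 was far above the other 2 metformin libraries, and GEM had the largest coefficient of variation of the 7 members that reached the tested level, 42.0% in metformin against 12.5% in control. The means were 17.1 ± 7.16 FPKM with metformin and 1.86 ± 0.234 FPKM in control (SD, n = 3 each). The fold of means was 9.15, and 6.94 without metformin replicate 3. On the log2(FPKM + 1) scale the difference was 2.59, and 2.28 without that library.

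REM2, an RGK gene known from neurons and pancreatic β cells, stayed under the tested level in both groups. The gene (ENSG00000139890) lies on the plus strand at chr14:22883222-22887678. REM2 was at 0.226, 0.282 and 0.176 FPKM in metformin libraries, against 0.0996, 0.170 and 0.151 FPKM in control libraries. Every metformin library was above every control library, although the closest of them differed by a ratio of only 1.03. Summed over 3 libraries, 28 fragments were counted with metformin (95% exact Poisson interval 18.6 to 40.5) and 17 in control (9.90 to 27.2), and the intervals overlapped. Poisson intervals cover counting error only. Among the 3 RGK genes measured, nearly all of the signal came from RRAD and GEM, whose summed level was 26.7, 26.5 and 44.4 FPKM in metformin libraries and 2.46, 2.29 and 2.04 FPKM in control libraries.

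RND1 and RND3, which oppose RhoA through GTPase-activating proteins of the p190 family, differed in how far they stood from control. The RND1 gene (ENSG00000172602) lies on the minus strand at chr12:48857145-48865870. RND1 was at 18.9, 15.3 and 12.3 FPKM in metformin libraries, against 2.44, 3.22 and 3.32 FPKM in control libraries. The groups did not overlap, and here metformin replicate 3 was the lowest of its group, the reverse of RRAD and GEM. The means were 15.5 ± 3.30 FPKM with metformin and 3.0 ± 0.481 FPKM in control (SD, n = 3 each), a fold of 5.17 and a log2(FPKM + 1) difference of 2.03.

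RND3, also called RhoE and known to bind the kinase ROCK1, was already abundant without metformin. Its gene (ENSG00000115963) lies on the minus strand at chr2:150468195-150539011. RND3 was at 39.1, 43.8 and 48.3 FPKM in metformin libraries, against 33.5, 39.7 and 38.8 FPKM in control libraries. The lowest metformin library fell below the highest control library, and the fold of means was 1.17. The log2(FPKM + 1) difference was 0.22, and it was 0.37 under TMM and 0.38 under median-of-ratios scaling. With 1 library left out it spanned 0.15 to 0.30. RND1 made up 32.6%, 25.9% and 20.3% of the summed FPKM of RND1 and RND3 in metformin libraries, against 6.81%, 7.51% and 7.88% in control libraries. RND3 therefore remained the more abundant Rnd transcript in all 6 libraries.

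RHOB, an endosomal relative of RhoA with a short-lived mRNA and protein, was the most abundant member in control libraries. Its gene (ENSG00000143878) lies on the plus strand at chr2:20447074-20449440 and consists of 1 exon, as do 1.88% of the protein-coding genes tested. RHOB was at 41.1, 45.1 and 39.2 FPKM in metformin libraries, against 42.3, 48.6 and 41.8 FPKM in control libraries. The ranges overlapped, and replicate spread (SD 3.01 with metformin, 3.75 in control) exceeded the difference between means of 41.8 and 44.3 FPKM. The log2(FPKM + 1) difference was -0.08, and scaling by TMM turned it to 0.072 and scaling by median of ratios to 0.075, so no direction is given for RHOB.

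RHOU, the Wnt-responsive relative of CDC42 also called Wrch-1, had the highest mean of the members in metformin libraries, with a range that overlapped that of RND3. The gene (ENSG00000116574) lies on the plus strand at chr1:228735479-228746664 and has 3 exons. RHOU was at 54.4, 54.8 and 47.5 FPKM in metformin libraries, against 41.3, 38.9 and 37.8 FPKM in control libraries. The groups did not overlap, with the lowest metformin library 1.15 times the highest control library. The means were 52.2 ± 4.10 FPKM with metformin and 39.3 ± 1.79 FPKM in control (SD, n = 3 each), and the log2(FPKM + 1) difference of 0.40 was 0.55 under TMM or median-of-ratios scaling.

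RASD1, also called Dexras1, is a Ras-like gene first found by its induction with dexamethasone. It lies on the minus strand at chr17:17494437-17496395 (ENSG00000108551). RASD1 was at 38.4, 41.2 and 35.3 FPKM in metformin libraries, against 18.8, 22.8 and 14.2 FPKM in control libraries. The groups did not overlap, and the control libraries were the more spread, the coefficient of variation being 7.79% with metformin and 23.2% in control. The means were 38.3 ± 2.99 FPKM with metformin and 18.6 ± 4.32 FPKM in control (SD, n = 3 each). The log2(FPKM + 1) difference was 1.03, and the log2 ratio of the means was 1.04. Both lay just above 1, the limit that the study set for a differentially expressed gene (DEG) on fold changes from another program. The log2(FPKM + 1) difference was 0.85 without control replicate 6, which had the lowest level, and 0.97 without metformin replicate 2. RRAD, GEM and RND1 stayed above that limit with any library left out.

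DIRAS3, an imprinted Ras-like gene known as a growth inhibitor in breast and ovary, was barely measured. Its gene (ENSG00000162595) lies on the minus strand at chr1:68045886-68051717 and is overlapped by the antisense lncRNA GNG12-AS1 and by the pseudogene ARL5AP3. The sources used here do not state whether the counting used strand, and overlap of exons was not checked. Whether fragments of GNG12-AS1 entered the count of DIRAS3 is therefore not known. DIRAS3 was at 0.264, 0.220 and 0.0588 FPKM in metformin libraries, against 0.0872, 0.0568 and 0.206 FPKM in control libraries. The groups overlapped, and 19 fragments with metformin (95% exact Poisson interval 11.4 to 29.7) stood against 12 in control (6.20 to 21.0). The fold of means of 1.55 spanned 1.19 (without metformin replicate 1) to 2.51 (without control replicate 6) when 1 library was left out. With so few fragments, a difference was not detectable at this depth.

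To show the sequence in front of the genes that moved and of those that did not, RefSeq promoter entries (GRCh38.p14, 250 bases before to 50 after each start) were searched for 7 motifs on both strands. Entries were found for 6 members (DIRAS3, RHOU, RHOB, RND3, REM2 and RASD1), and RRAD, GEM, RND1 and REM1 were not analysed in this way. The motifs were the cAMP response element TGACGTCA, the AP-1 site TGANTCA, the E-box CACGTG, the CCAAT box CCAAT, the heat shock element GAANNTTC, the C/EBP-ATF site TGATGNAA and the CArG box, which is bound by serum response factor. Of 35116 promoter entries in all, 1.85% held the first of these, 7.71% the AP-1 site, 7.26% the E-box, 34.6% the CCAAT box, 6.77% the heat shock element, 3.62% the C/EBP-ATF site and 1.29% the CArG box. RHOB and RND3 were the members with a match, and their upstream bases are printed with those matches in capitals, beside RASD1 as an entry without any of these letters. The RHOB sequence is chr2:20446824-20447073 on the plus strand, RND3 is chr2:150487696-150487945 on the minus strand, and RASD1 is chr17:17496396-17496645 on the minus strand.
RHOB: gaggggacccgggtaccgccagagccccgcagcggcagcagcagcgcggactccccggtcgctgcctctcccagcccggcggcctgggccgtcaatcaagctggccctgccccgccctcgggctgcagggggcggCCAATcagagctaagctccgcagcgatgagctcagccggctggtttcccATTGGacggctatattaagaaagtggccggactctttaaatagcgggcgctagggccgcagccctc
RND3: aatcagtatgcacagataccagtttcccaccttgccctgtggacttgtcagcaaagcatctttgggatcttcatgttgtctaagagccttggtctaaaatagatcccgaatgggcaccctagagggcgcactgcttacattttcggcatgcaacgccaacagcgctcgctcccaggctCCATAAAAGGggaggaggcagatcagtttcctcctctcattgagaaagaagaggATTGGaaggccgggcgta
RASD1: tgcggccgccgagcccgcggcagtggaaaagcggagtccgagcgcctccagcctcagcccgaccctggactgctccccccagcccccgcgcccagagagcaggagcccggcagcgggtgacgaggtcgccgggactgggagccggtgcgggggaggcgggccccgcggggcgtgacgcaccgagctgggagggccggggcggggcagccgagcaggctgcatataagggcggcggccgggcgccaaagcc
RHOB held CCAAT boxes at -115 to -111 on the gene's strand and at -66 to -62 on the opposite strand. RND3 held a CArG box at -72 to -63 and CCAAT boxes on the opposite strand at -18 to -14 and, beyond the printed bases, at 42 to 46 after the start, and a further RND3 entry holds the same sites. These matches are letters in a window and say nothing of whether a factor was bound. The GC content of these upstream bases was 78.0% in RASD1, 68.8% in RHOB and 51.2% in RND3, beside a median of 58.0% over all entries.

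The order of the levels differed between the groups. With metformin it ran RHOU, RND3, RHOB, RASD1, GEM, RND1, RRAD, REM2 and DIRAS3, and neighbours in this order overlapped in their library ranges except RASD1 above GEM and RRAD above REM2. In control it ran RHOB, RHOU, RND3, RASD1, RND1, GEM, RRAD, REM2 and DIRAS3, and here only RHOU with RND3 and REM2 with DIRAS3 overlapped. GEM and RRAD thus lay apart from RND1 in control libraries, and the 3 genes could not be ranked in metformin libraries. The summed level of all 9 genes was 225 ± 4.69 FPKM with metformin and 145 ± 9.34 FPKM in control (SD, n = 3 each).

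The members also differ in a letter string linked to unstable mRNAs, the AU-rich core TATTTAT in the 3′ untranslated region of the canonical transcript. GEM holds 3 copies in 1057 bases, and RND1 (851 bases), RND3 (1792 bases) and RHOU (2924 bases) hold 1 each. RRAD, REM2, RHOB, RASD1 and DIRAS3 hold none in 391 to 1384 bases. Among 10858 protein-coding genes tested, 36.4% hold a copy and 15.7% hold at least 2, with a median length of 1342 bases. The string thus occurs in members with high folds (GEM, RND1) and low ones (RND3, RHOU), and RRAD has none.

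To see where the members stood among their relatives, other Ras-branch GTPases were taken from a list written for this purpose. Of 20 other Ras-branch genes tested, 7 rose, 7 fell and 6 did not pass (limma, Benjamini-Hochberg), with a median log2(FPKM + 1) difference of -0.06, which became 0.08 under TMM or median-of-ratios scaling. The median of the 7 tested members was 1.03 and that of all 13094 genes was -0.14. RIT1, a Ras relative without a lipid tail, rose to 13.7 ± 0.860 FPKM with metformin, against 5.75 ± 0.560 FPKM in control (SD, n = 3 each), a log2 difference of 1.12. MRAS, which with SHOC2 helps to activate RAF kinases, rose by 1.04 on that scale, and RASL11A fell by 1.38. RRAS2 rose by 0.86, and like GEM it was highest in metformin replicate 3, at 31.6, 37.2 and 55.0 FPKM in metformin libraries and 19.8, 22.6 and 22.5 FPKM in control libraries.

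RND2, the third Rnd gene, fell by 0.56 to a mean of 0.572 FPKM with metformin, against 1.31 FPKM in control, but with quantile normalization it did not pass (adjusted p = 0.290). The Rnd genes thus did not share a direction in these libraries. RHOA, the target of Rnd signalling, was named after its values were seen and was at 215 ± 8.32 FPKM with metformin and 248 ± 5.52 FPKM in control (SD, n = 3 each, adjusted p = 0.00506 by limma). ARHGAP35 (p190A), named after its values were seen as the partner of RND1 and RND3, rose by 0.68, with 32.3 ± 1.29 FPKM after metformin and 19.8 ± 1.47 FPKM in control (SD, n = 3 each).

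**Figure D2:**
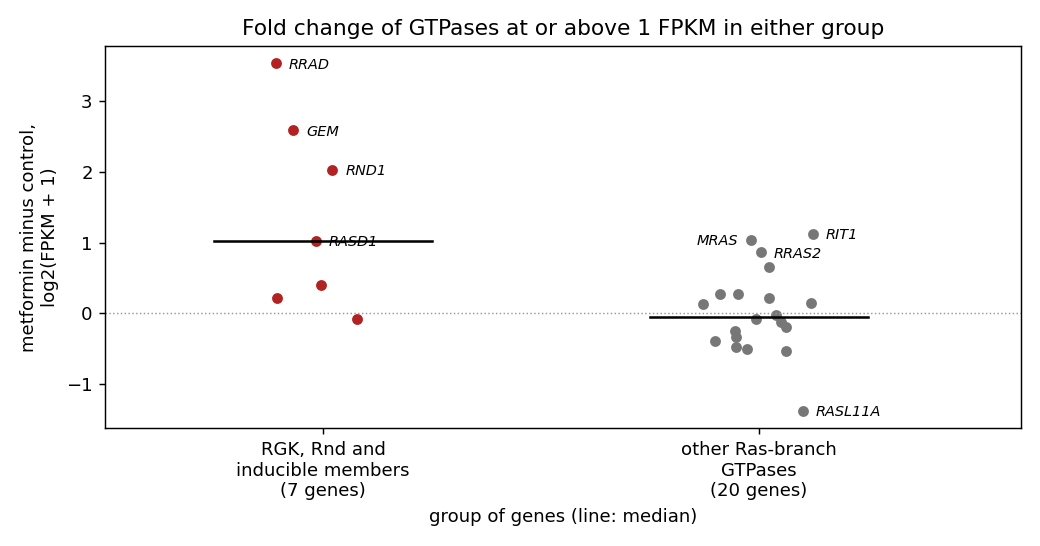
Difference of metformin minus control on log2(FPKM + 1) (y axis) for the 7 tested members and 20 other Ras-branch GTPases (x axis). Each point is a gene and the line is the median, which was 1.03 for the members and -0.06 for the other Ras genes, the value of the other Ras genes turning above 0 under TMM scaling. The members were chosen on this measure.

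Known partners of RGK proteins were taken from a further list. The calcium channel genes of the list (4 β and 6 α1 subunits) were all under 1 FPKM in both groups, with group means of at most 0.556 FPKM. Of the 11 partners tested, 1 rose, 9 fell and 1 did not pass, beside 28.9% higher and 44.1% lower over all genes, with a median of -0.34. Under TMM or median-of-ratios scaling 1 rose and 6 fell, with a median of -0.20 and -0.19. SFN, a 14-3-3 protein, fell by 0.77 on the log2(FPKM + 1) scale, with 20.6 ± 0.328 FPKM after metformin and 35.8 ± 3.30 FPKM in control (SD, n = 3 each).

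Of 12 genes that make, attach, process or bind prenyl lipids, including those that serve Rab GTPases, 4 rose, 5 fell and 3 did not pass, with a median of 0.02 (-0.02 without metformin replicate 2). Under TMM scaling 5 rose and 3 fell with a median of 0.15, and under median of ratios 5 rose and 3 fell with a median of 0.16. FDPS, which makes farnesyl diphosphate, fell by 2.12 to 9.41 ± 0.954 FPKM with metformin, against 44.3 ± 1.98 FPKM in control (SD, n = 3 each). CHML, an escort protein for Rab GTPases, fell by 1.87, ICMT, which methylates prenylated proteins, fell by 0.36, and RABGGTB, a subunit of the enzyme that prenylates Rab GTPases, rose by 0.46.

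The letters matched in front of RND3 are those of the CArG box, which serum response factor can bind, and binding was not measured. The activity of that factor is tied to actin. Of 15 genes of that pathway tested, 7 rose, 4 fell and 4 did not pass, with a median of 0.10 that was 0.25 under TMM or median-of-ratios scaling and 0.05 without metformin replicate 1. FHL2 rose by 1.94, the coactivator MRTFA by 0.69 and ACTG1 by 0.66, while TPM1 fell by 1.18. ACTB, named after its values were seen, fell by 0.65. Of 8 genes of the glucocorticoid receptor and its targets, the pathway through which RASD1 was discovered, 4 rose, 3 fell and 1 did not pass. Their median of 0.05 was 0.0059 without control replicate 4, 0.16 without metformin replicate 1 and 0.19 under TMM or median-of-ratios scaling. PER1 rose by 1.57 and KLF9 by 1.18, and CAVIN2 fell by 0.89. CAVIN2 was at a mean of 0.43 FPKM with metformin and 1.66 FPKM in control, and reached the tested level only through control. TSC22D3 rose by 1.72, but its metformin libraries were at 19.2, 25.4 and 59.5 FPKM, highest in replicate 3 as for GEM, against 9.80, 9.13 and 7.16 FPKM in control libraries. RASD1 itself was lowest in that replicate.

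**Figure D3:**
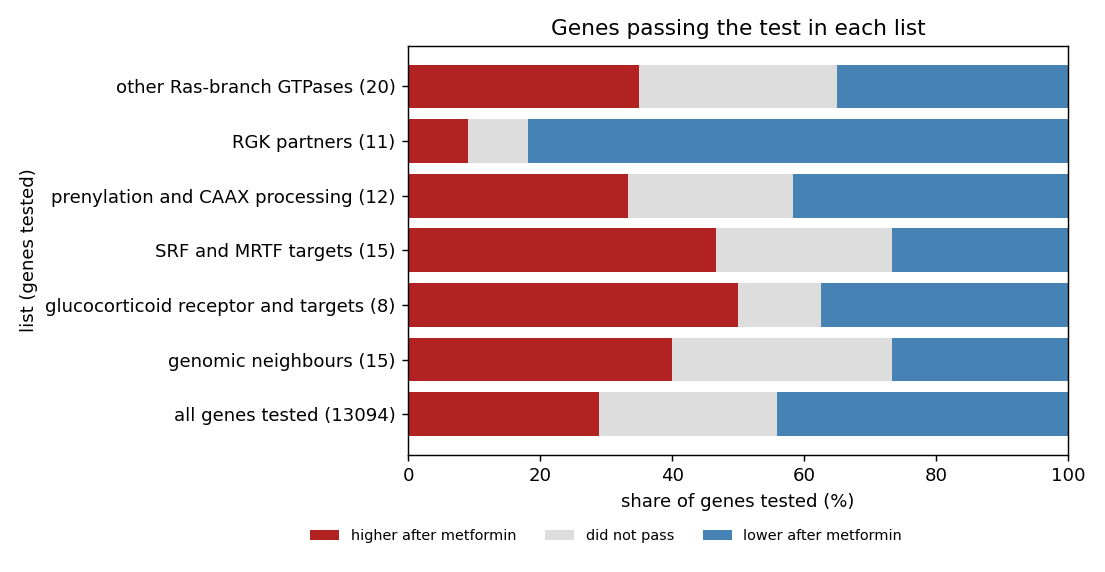
Share of the tested genes (x axis, %) that passed an adjusted p of 0.05 as higher (red) or lower (blue) after metformin or did not pass (grey) in each list (y axis, number tested in brackets), with all 13094 genes at the bottom. Among the RGK partners 9 of 11 were lower, where 44.1% of all genes were. Under TMM or median-of-ratios scaling 6 of the 11 were lower, and the share of all genes under those settings is not given here.

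The genomic neighbours of the members, the nearest protein-coding gene on each side and any overlapping gene, numbered 20, of which 15 were tested. Of these, 6 rose, 4 fell and 5 did not pass, with a median of 0.04. Under TMM or median-of-ratios scaling 8 rose and 1 fell, with a median of 0.17. Beside RRAD, CDH16 lay 2767 bases away under the tested level and CIAO2B, 6529 bases away, rose by 0.32, a small part of the difference of RRAD. Beside GEM, CDH17 fell by 0.40 and RAD54B was under the tested level. Beside RND1, DDX23, 4302 bases away, differed by 0.01 and did not pass. Beside RASD1, MED9, 1215 bases away, differed by 0.04 and did not pass, and PEMT rose by 0.33. RNF187 had the largest rise among neighbours, 1.22, and lay 235579 bases from RHOU, while RAB4A on the other side differed by 0.08 and did not pass. Beside RND3, MMADHC differed by -0.05 and did not pass, and RBM43 fell by 0.98. RBM43 was at a mean of 0.61 FPKM with metformin and 2.20 FPKM in control, and reached the tested level only through control. Beside RHOB, PUM2 fell by 0.18 and HS1BP3 rose by 0.53. Near DIRAS3, WLS rose by 0.58 and GNG12 differed by -0.12 and did not pass. Beside REM2, LRP10 rose by 0.26 and RBM23 fell by 0.25. The tested genes beside RRAD, GEM and RND1 differed by less than these members did. The members were selected on this contrast and their neighbours were not, so nothing is read from that.

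For RHOU, the member with the highest mean in metformin libraries, the 5 protein-coding genes with the most similar profile were sought by the root mean square difference over the 6 libraries on log2(FPKM + 1), each gene centred on its control mean, among 6781 genes whose mean over the libraries was 5 FPKM or more. They were NDUFAF2 (0.03), METTL16 (0.03), ADGRE5 (0.03), CCDC43 (0.04) and PTP4A3 (0.04). NDUFAF2, an assembly factor of complex I, was at 47.4 ± 3.46 FPKM with metformin and 35.1 ± 1.52 FPKM in control (SD, n = 3 each). By the same measure, in a ranking read after the values were seen, the nearest gene to RND1 was DDIT3 at 0.10, followed by IRF2BP2 at 0.12 and DUSP1 at 0.13. DDIT3, a transcription factor of the stress response, was at 40.5 ± 4.82 FPKM with metformin and 9.50 ± 1.74 FPKM in control. The nearest gene to GEM was BCL6, a transcriptional repressor, at 0.14, with 26.6 ± 9.01 FPKM with metformin and 3.93 ± 0.665 FPKM in control. RRAD had no gene closer than 0.23, reached by the metallothionein MT1G. All of these profiles rest on the same 6 libraries and mainly on the step between the groups.

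The members' differences were set against other ways of scaling and summarising. RRAD spanned 3.39 to 3.64 when any 1 library was left out, GEM 2.28 to 2.77, RND1 1.89 to 2.18 and RASD1 0.85 to 1.18. RRAD was 4.95 with a pseudocount of 0.1 and 5.21 with voom on rebuilt fragments, GEM was 3.06 and 3.11, and RND1 was 2.32 and 2.36. The pseudocount of 1 FPKM thus set the size of RRAD most. Scaling by TMM moved the median of all genes from -0.14 to -0.01, a shift larger than the difference of RHOB. DEGs were 31.3% higher as reported, 44.7% under TMM, 44.9% under median-of-ratios and 49.6% under quantile normalization. RRAD, GEM, RND1, RASD1, RHOU and RND3 had differences above 0 under each of these, although RND3 had FPKM values that overlapped between the groups, and RHOB changed sign.

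**Figure D4:**
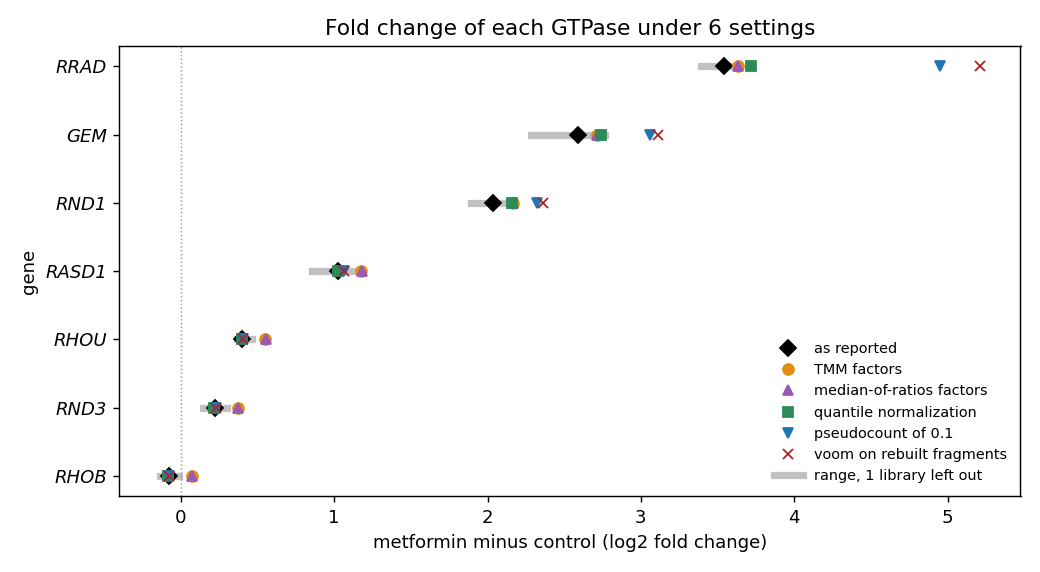
Difference of metformin minus control (x axis, log2 fold change) of the 7 tested members (y axis) as reported and under 5 other settings, with grey bars for the range when 1 library is left out. RRAD moved from the reported 3.54 to 5.21 with voom, and RHOB changed sign under TMM and median-of-ratios scaling.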

How the data were processed

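The authors deposited FPKM values for 35840 genes in 6 libraries. Per the study's methods, clean reads, GRCh38 and Cufflinks 2.1.1 were used. Sources used here name no aligner. Whole fragments were rebuilt from the FPKM steps for 99.99% of the 31777 genes above 0 (tolerance 1e-08). Metformin was compared with control with limma 3.58.1 (R 4.3.3, empirical Bayes with a trend of variance on mean level, values log2(FPKM + 1)). Genes whose mean reached 1 FPKM in at least 1 of the groups entered this two-sided test, and p-values were adjusted over all of them by Benjamini-Hochberg. Adding 1 FPKM shrinks the fold change of low genes. DEGs met an adjusted p of 0.05 and a log2 fold change beyond 1 in either direction. The study set these limits on the output of the program Cuffdiff. Its DEGs and those on log2(FPKM + 1) here are therefore not on the same measure. The fitting code was run on simulated data with 200 changed genes and the same spread for every gene. That setting is simpler than these data, so it checked the code and not the calls made here. Python 3.11.15 with pandas 2.3.3 served for tables. The members, the 7 gene lists and the tests were chosen with earlier results of these data known. Named genes were every member, up to 4 called genes of each list with the largest change (some items, and 2 of the lists, are not reported here), every tested neighbour, and the 5 genes most like RHOU. The settings varied were the pseudocount (0.1 or none), the filter on level, the scaling (quantile, TMM, median of ratios), the values (voom on the rebuilt fragments of genes with 10 or more in 3 or more libraries) and the libraries, each left out in turn. Protein sequences were not used here.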

Additional observations from a re-analysis of the deposited data

How the results depend on the processing

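DEGs numbered 2040 (639 higher, 1401 lower), against 3420 (998 higher, 2422 lower) with a pseudocount of 0.1 and 4788 (1166 higher, 3622 lower) with voom, which tested 15683 genes. Quantile normalization gave 924 lower DEGs. Leaving out 1 library gave 2004 to 2128 DEGs, 613 to 672 higher and 1352 to 1462 lower. The cause of these moves was not tested. RHOB, at -0.08, reversed to 0.072 under TMM and to 0.075 under median-of-ratios scaling. The members that passed numbered 5 to 6 under these settings, and the counts of passing genes in each list stayed within 1.5 times the reported count. The members were selected on this contrast, so nothing is read from their count. Of 95 further values of members, 78 moved by less than the replicate spread, 15 by more and 2 reversed. Of 516 values of other named genes, 495 stayed on their side of the threshold, 16 lost the call (CDH17, LRP10, RBM23, PUM2 and RND2) and 5 gained it (MED9 and RAB4A). MMADHC, GNG12 and DDX23, which did not pass, changed sign under some of these settings. No paired analysis was made because the sources used here do not state whether metformin and control libraries were matched. Depth limits REM2 and DIRAS3, and the control level of RRAD.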
